A study of Homo sapiens with 2 samples.

Results

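The inhibitor of DNA binding (ID) genes *ID1*, *ID2*, *ID3* and *ID4* were examined in ChIP-seq peak lists from DLD1-TetOff cells with FLAG-wt-Cdx1 or with FLAG-wt-Cdx2, called Cdx1 and Cdx2 here. A peak was assigned to a gene when its summit fell into a window holding the gene and about 30 kb on each side. This rule gave 46 peaks, namely 21 of the 196910 Cdx1 peaks and 25 of the 218718 Cdx2 peaks. No summit of either factor was called within 2 kb of the placed transcription start site (TSS) of any of the 4 genes, or within 1 kb when all TSSs were moved by 1 kb. Over a grid of positions 1 kb apart along the genome, a summit lay within 2 kb of 23.8% of positions with Cdx1 and of 26.7% with Cdx2. The highest pileup among the 46 peaks was that of a Cdx1 peak about 10 kb upstream of *ID1*.

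ID proteins carry a helix-loop-helix domain but no basic region for contact with DNA. They pair with E proteins and other helix-loop-helix factors and so keep them off their E-box sites. ID genes are well-known targets of BMP-SMAD signaling, and in the intestine *ID1* is mainly active in the proliferating cells of the crypts. CDX1 and CDX2 are homeodomain factors of the intestinal epithelium that bind AT-rich sequences. The study followed *ID1* and *ID3* transcripts after induction of Cdx1 or Cdx2. The peak lists show where peaks were called around the genes without a control library, which alone does not establish binding at the genes themselves.

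Both libraries came from DLD1-TetOff cells, a line derived from the human colon cancer line DLD1 that makes a transactivator repressed by doxycycline (DOX). Stable clones, expanded from single cells and selected with hygromycin, carried a transgene for FLAG-tagged mouse wt-Cdx1 in one group and mouse wt-Cdx2 in the other. Each group had 1 library, prepared from 10 pooled dishes 20 h after withdrawal of DOX (0.5 µg/mL), so that a difference between the factors cannot be told apart from a difference between clones or libraries. The descriptions of the libraries say that the cells lack the tagged factor when DOX is present, whereas the growth and treatment protocols state that DOX was withdrawn to induce it. The protocols were followed here, and every peak is reported as one from induced cells, which the peak lists alone cannot check. Chromatin was digested with micrococcal nuclease (MNase), which leaves mainly nucleosome-sized fragments, and precipitated with anti-FLAG beads. As peak lists hold no expression values, the cell type could not be checked against markers.

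The Cdx1 library had 16452141 tags after filtering, 1.19 times as many as the Cdx2 library (13781541). Peak height is given as the pileup, that is, how many fragments cover the summit, which the authors did not scale to depth. Its rank is given as the share of peaks in the same list with a lower pileup. The fold enrichment compares the pileup with a local background taken from the same library, since no control library was used in peak calling. As each factor had a single library, the factors were not tested against each other, and all intervals cover counting error only. Coordinates are those of the lists, which the submitters' processing notes place on GRCh37.

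A summit lay within 1 kb of 12.8% of grid positions with Cdx1 and of 14.3% with Cdx2. The absence of a summit from a stretch of 250 bases is thus the usual outcome, and nothing is read from it. The sequence just upstream of the 4 start sites is shown as a description only. It was taken from RefSeq (GRCh38.p14, whose coordinates are not those of the lists) as the 250 bases before each start, 5′ to 3′ on the strand of the gene. Capitals mark TTTAT on either strand (ATAAA when read on the strand shown), the AT-rich core of the CDX consensus.
ID1, chr20:31605039-31605288 (plus strand): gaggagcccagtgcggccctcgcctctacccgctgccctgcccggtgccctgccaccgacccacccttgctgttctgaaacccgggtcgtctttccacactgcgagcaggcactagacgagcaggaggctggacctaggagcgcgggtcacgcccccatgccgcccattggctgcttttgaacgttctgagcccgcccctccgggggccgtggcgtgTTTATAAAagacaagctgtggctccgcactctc
ID2, chr2:8681806-8682055 (plus strand): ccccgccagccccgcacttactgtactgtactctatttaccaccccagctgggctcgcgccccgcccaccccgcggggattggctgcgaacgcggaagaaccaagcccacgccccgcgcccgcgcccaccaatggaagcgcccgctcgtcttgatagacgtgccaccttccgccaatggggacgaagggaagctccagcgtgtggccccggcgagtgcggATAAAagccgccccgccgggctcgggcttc
ID3, chr1:23559502-23559751 (minus strand): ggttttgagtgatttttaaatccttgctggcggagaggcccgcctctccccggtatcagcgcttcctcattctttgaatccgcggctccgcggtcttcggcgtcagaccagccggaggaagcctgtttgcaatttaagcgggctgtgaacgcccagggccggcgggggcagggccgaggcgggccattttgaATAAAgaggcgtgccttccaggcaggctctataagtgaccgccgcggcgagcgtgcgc
ID4, chr6:19837120-19837369 (plus strand): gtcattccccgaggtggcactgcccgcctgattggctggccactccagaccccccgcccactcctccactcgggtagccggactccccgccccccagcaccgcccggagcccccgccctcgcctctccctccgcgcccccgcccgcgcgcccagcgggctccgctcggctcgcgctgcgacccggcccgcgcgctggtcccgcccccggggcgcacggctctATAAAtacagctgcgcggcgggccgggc

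TTTAT occurred on at least one strand in 4 of 4 ID promoters, against 32.7% of 35116 RefSeq promoters of this length. In *ID1* and *ID4* the match overlapped TATAAA, the TATA box sequence, 26 to 33 and 24 to 28 bases before the start. In *ID2* it lay 26 to 30 bases before the start, without TATAAA, and in *ID3* 54 to 58 bases before it. The longer form TTTATNG was found in 1 of 4, *ID4*, against 8.93% of all promoters, and TATAAA in 2 of 4 against 10.7%. These letters describe the sequence and are not evidence of a site. The promoters were rich in G and C, at 66.0% in *ID1*, 69.2% in *ID2*, 62.0% in *ID3* and 78.8% in *ID4*, against a median of 58.0% over all promoters.

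At *ID1* (plus strand, window chr20:30163000-30225000), Cdx1 had 8 peaks and Cdx2 had 5. The highest Cdx1 peak had its summit at position 30182602, 10398 bp upstream of the placed TSS. Its pileup was 20 fragments (95% exact Poisson interval, 12.2 to 30.9), its fold enrichment was 9.09 and its −log10 q was 13.95, a pileup above that of 96.6% of the list. A Cdx2 peak overlapped it over its whole length of 307 bp, with the summit 112 bp away at 30182490, a pileup of 12 (6.20 to 21.0) and a fold enrichment of 5.38. This place upstream of *ID1* was thus called with both factors, with summits slightly too far apart to count as shared under the limit of 100 bp.

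Further upstream of *ID1*, the factors shared a summit 25.7 kb from the TSS. The Cdx1 pileup there was 10 and the Cdx2 pileup 12, with summits 21 bp apart. The highest Cdx2 peak of the locus lay between these places, at position 30179583, and had 14 fragments and a rank of 92.4%. It had no Cdx1 summit within 3 kb. Close to the gene, the factors differed in what was called. Cdx1 had a peak on either side of *ID1*, one of 9 fragments at 2446 bp upstream and one of 10 fragments at 2304 bp downstream of the placed TSS. Their ranks were 31.9% and 50.1%, and their −log10 q was 4.24 and 4.98. Cdx2 had no summit within 10 kb of the TSS, and its nearest was the peak at 30182490. Over the grid, 76.2% of positions had a Cdx2 summit within 10 kb. At a −log10 q of 5 or more, the nearest summits were 10398 bp upstream with Cdx1 and 10510 bp upstream with Cdx2, so the difference rests on Cdx1 peaks below this threshold. The remaining Cdx1 peaks had pileups of 7 or 8, and those of Cdx2 had 7 and 10.

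The local background differed between the libraries at *ID1*. It was 1.28 to 1.64 times the genome-wide value at the Cdx1 peaks and 2.04 to 2.31 times at the Cdx2 peaks. Over all peaks within 500 kb of the window the medians were 1.39 and 1.55 times, and over chromosome 20 they were 1.30 and 1.18 times. A raised background demands a higher pileup for a call, and in the Cdx2 list the lowest pileup called at these backgrounds was 6. These Cdx2 backgrounds are those of peaks at least 10 kb from the TSS, and the background beside the gene itself was not measured. The part of the background in the difference between the factors was not tested.

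At *ID3* (minus strand, window chr1:23854000-23917000), Cdx1 had 7 peaks, Cdx2 had 6, and 3 summits were shared (over the whole lists, 29.2% of Cdx1 summits and 26.3% of Cdx2 summits were). At the limit of 100 bp, *ID3* was the locus with the most shared summits, whereas at 50 bp *ID1* and *ID3* had 1 each. The highest peaks of Cdx1 and of Cdx2 at *ID3* were the same site, 8.2 kb upstream of the TSS by the Cdx1 summit. It had 14 fragments (7.65 to 23.5) with Cdx1 and 11 (5.49 to 19.7) with Cdx2, and the summits, at 23895185 and 23895105, were 80 bp apart. The other shared summits lay downstream of the TSS and past the gene. One, 19.5 kb downstream by the Cdx1 summit, had pileups of 10 and 8 with summits 100 bp apart, exactly at the limit. The other, 30.7 kb downstream, had 10 fragments in both libraries with summits 13 bp apart.

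The peaks closest to *ID3* were called with both factors at neighboring but separate sites. The Cdx1 summit lay at 23889217, 2217 bp upstream of the TSS, and had 13 fragments and a rank of 80.2%. The Cdx2 summit lay at 23889749, 2749 bp upstream, and had 10 fragments and a rank of 72.4%. The summits were 532 bp apart and the peaks did not overlap. Of the 7 Cdx1 peaks at *ID3*, 6 had a −log10 q of at least 5, against 1 of 8 at *ID1* and 52.2% of the Cdx1 list. Of the 6 Cdx2 peaks, 3 did, as did 3 of 5 at *ID1*, against 29.0% of the Cdx2 list. The Cdx1 peaks of 10 fragments at *ID1* had a −log10 q of 4.98, just under this threshold. At a fold enrichment of 5 or more, 3 of 8 Cdx1 peaks were left at *ID1* and 6 of 7 at *ID3*. The local background was 1.00 to 1.39 times the genome-wide value at the Cdx1 peaks and 1.00 to 2.23 times at the Cdx2 peaks.

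At *ID2* (plus strand, window chr2:8792000-8855000), the numbers of peaks were the most unequal, with 3 for Cdx1 and 10 for Cdx2. The 3 Cdx1 peaks all lay upstream of the TSS. They had pileups of 11, 14 and 9, and the strongest, at position 8817952, was 4048 bp upstream with a fold enrichment of 6.88 and a rank of 85.1%. Over the 4 loci, 13 of 21 Cdx1 peaks and 13 of 25 Cdx2 peaks lay upstream, and no difference in side between the factors is read at *ID2*. Here, 7 of the 10 Cdx2 peaks lay downstream of the TSS. Of these, 1 had its summit at 8824628, 2628 bp downstream and inside the 3 kb interval that holds the gene, with a pileup of 9, and it was the only summit inside such an interval at any of the 4 genes. The most strongly covered was at 8835385, 13.4 kb downstream, with 12 fragments (6.20 to 21.0), and the next at 8839613 with 11.

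Most Cdx2 peaks at *ID2* were weak. Their median pileup was 6.5 fragments, and 2 of them had 5 fragments, a rank of 1.51%. At a −log10 q of 5 or more, 2 peaks of each factor were left at *ID2*, against 52.2% of the Cdx1 list and 29.0% of the Cdx2 list. At a fold enrichment of 5 or more there were 2 of Cdx1 and 4 of Cdx2. The median fold enrichment of the lists was 5.33 and 4.72, respectively. Both factors were called together at 2 places upstream. At the first, with the Cdx1 summit 13678 bp upstream, a Cdx1 peak of 740 bp, the longest of the 46, contained a Cdx2 peak of 220 bp, with pileups of 11 and 9 and summits 258 bp apart. At the second, the Cdx1 summit lay 3251 bp upstream with 9 fragments and the Cdx2 summit 3377 bp upstream with 6, at a gap of 126 bp. The local background was 1.38 to 1.58 times the genome-wide value at the Cdx1 peaks and 1.00 to 1.90 times at the Cdx2 peaks.

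*ID4* (plus strand, window chr6:19807000-19873000) had the fewest peaks, 3 for Cdx1 and 4 for Cdx2. None had a pileup above 9 fragments, and no peak of one factor overlapped a peak of the other. Over the whole lists, 34.2% of Cdx1 peaks and 30.8% of Cdx2 peaks overlapped one. With so few peaks, nothing particular to *ID4* is drawn from this. The Cdx1 pileups were 9, 9 and 8, with the nearest summit at 19832233, 4767 bp upstream of the TSS. The Cdx2 pileups were 9, 5, 6 and 9, with the nearest summit at 19824070, 12930 bp upstream, and this nearest peak had 5 fragments. The closest summits of different factors at *ID4* lay more than 3 kb apart. The local background was at or near the genome-wide value, at 1.00 to 1.03 times for Cdx1 and 1.00 to 1.29 times for Cdx2, and pileups down to 5 and 4 were called at such backgrounds in the lists.

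**Figure D1:**
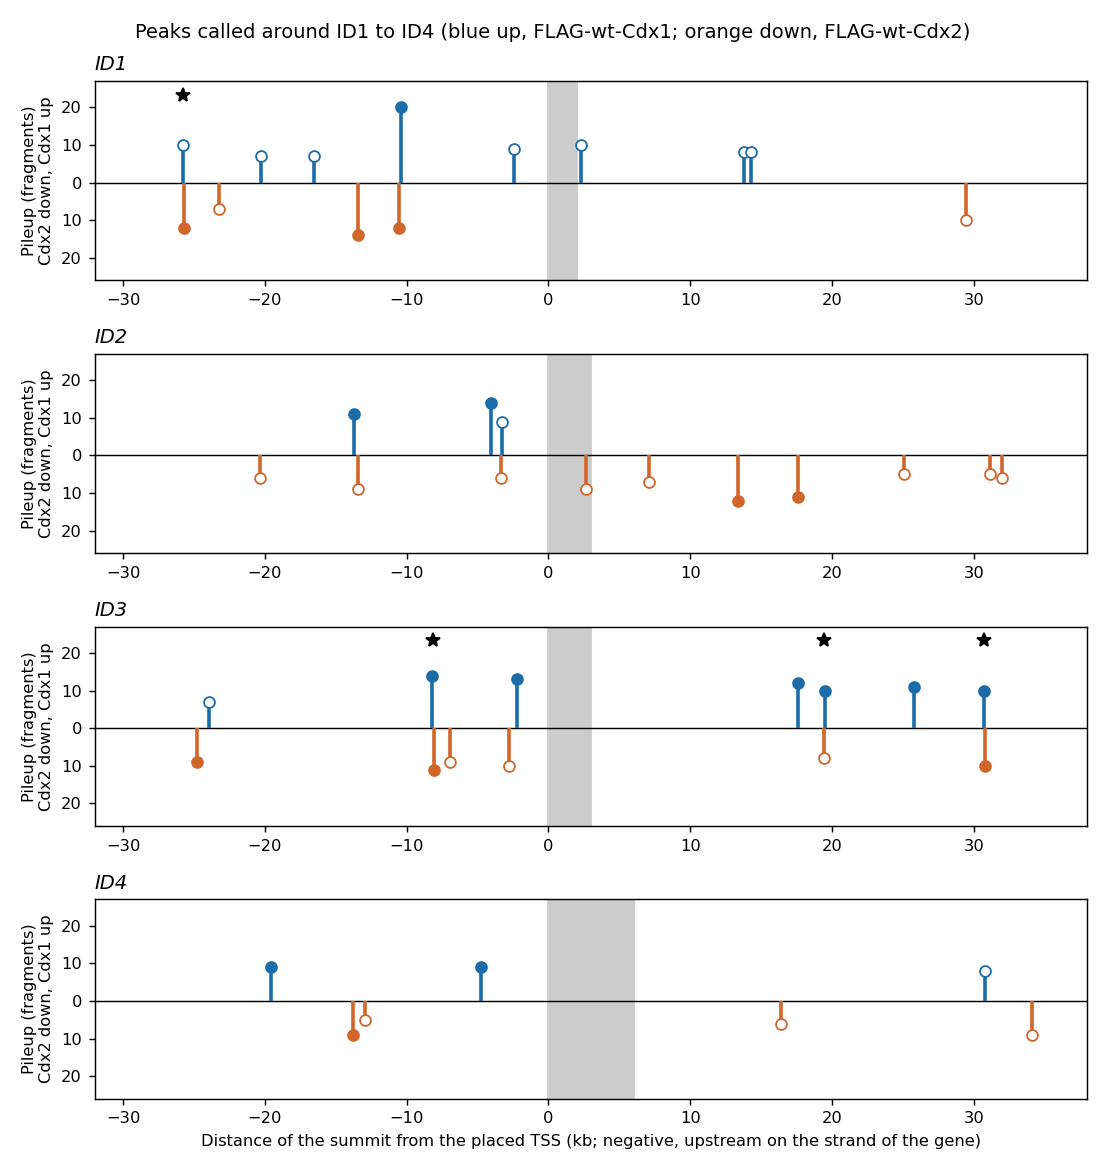
Pileup in fragments (vertical axis, Cdx1 upward in blue and Cdx2 downward in orange) against the distance of each summit from the placed TSS in kb, for the 46 peaks. Filled points have a −log10 q of at least 5, stars mark the 4 shared summits, and gray bands mark the interval that holds the gene. No summit lies within 2 kb of a placed TSS, whereas 23.8% of grid positions with Cdx1 and 26.7% with Cdx2 have one this near. Nothing particular to the ID genes is read from this. The tallest line is the Cdx1 peak of 20 fragments upstream of *ID1*.

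The distance from the TSS to the nearest summit was 2304 bp for *ID1*, 3251 bp for *ID2*, 2217 bp for *ID3* and 4767 bp for *ID4* with Cdx1. With Cdx2, it was 10510, 2628, 2749 and 12930 bp, respectively. *ID1* and *ID4* thus had their nearest Cdx2 summit beyond 10 kb, and *ID2* and *ID3* within 3 kb. Without an annotation of GRCh37, each TSS was placed 30 kb inside the 5′ edge of its window, which is correct to about 1 kb. When all TSSs were moved 1 kb upstream or downstream, the nearest summit of any gene was still 1217 bp away. To read these distances, every position of a 1-kb grid over the genome was treated like a TSS. A summit within 1 kb was found for 12.8% of grid positions with Cdx1 and 14.3% with Cdx2, against 0 of 4 genes for each. Within 2 kb, the shares were 23.8% and 26.7%, again against 0 of 4. At such background shares, 0 of 4 genes is a small count to read, and nothing particular to the ID genes is drawn from it. Within 3 kb, the shares were 33.3% and 37.5%, against 2 of 4 genes with each factor. Within 5 kb, they were 48.4% and 54.0%, and within 10 kb 70.7% and 76.2%, against 4 of 4 genes with Cdx1 and 2 of 4 with Cdx2 at both limits.

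**Figure D2:**
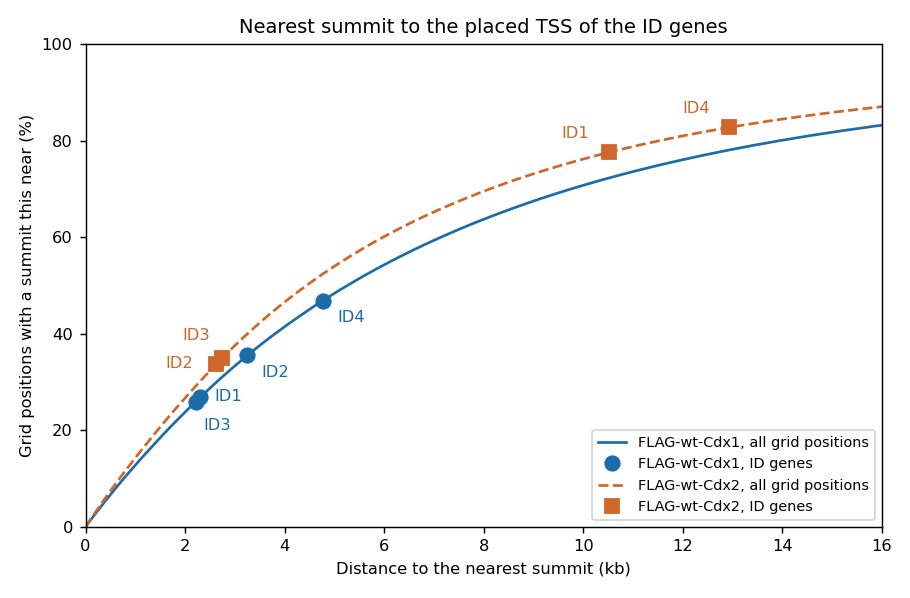
Share of grid positions in percent with a summit at least as near (vertical axis) against the distance to the nearest summit in kb, as a blue solid line for Cdx1 and an orange dashed line for Cdx2. The points are placed on the lines at the distance of each ID gene, and only *ID1* and *ID4* with Cdx2, at 10.5 and 12.9 kb, lie beyond the median distance of all grid positions (4442 bp with Cdx2 and 5264 bp with Cdx1).

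Numbers of peaks at the ID loci were set beside those in all windows of the same length tiled over chromosomes 1 to 22 and X that held a peak of either factor. The median of these windows was 4 Cdx1 peaks and 5 Cdx2 peaks. The 8 Cdx1 peaks at *ID1* were equaled or exceeded in 10.9% of windows, and the 7 at *ID3* in 19.7%. The 10 Cdx2 peaks at *ID2* were equaled or exceeded in 4.23%, the 6 at *ID3* in 40.3% and the 5 at *ID1* in 53.9%. *ID4* lay in the lower part of both distributions, with as many or more peaks in 78.3% of windows for Cdx1 and 72.4% for Cdx2, and so did *ID2* for Cdx1, with 76.4%. Over the 4 windows together, 254 kb in length, there were 82.7 Cdx1 peaks and 98.4 Cdx2 peaks per Mb, 1.17 and 1.25 times the mean over the tiled windows. The windows also reach toward neighboring genes, which in RefSeq are *HM13* and *COX4I2* beside *ID1*, *RNF144A* and *KIDINS220* beside *ID2*, *E2F2* and *RPL11* beside *ID3*, and *RNF144B* and *MBOAT1* beside *ID4*. A peak in a window is therefore near an ID gene but is not shown to act on it.

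**Figure D3:**
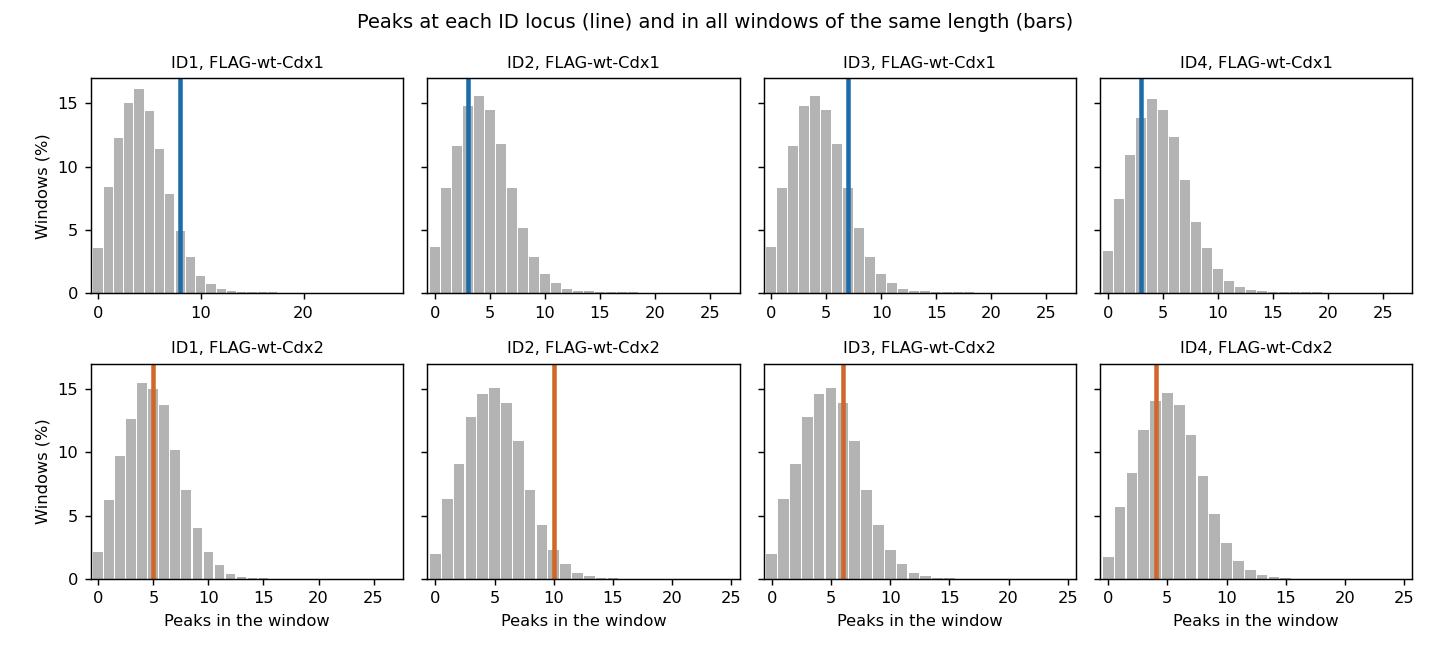
Share of tiled windows in percent (vertical axes) against the number of peaks in the window (horizontal axes), with 1 panel for each gene and factor and windows of the length used for that gene. The colored line marks the ID locus, which lies furthest to the right of the bars for *ID2* with Cdx2 (10 peaks) and *ID1* with Cdx1 (8 peaks).

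In strength, the peaks at the ID loci spanned most of their lists. The ranks of the Cdx1 peaks ran from 5.81% to 96.6% with a median of 50.1%, and those of the Cdx2 peaks from 1.51% to 92.4% with a median of 60.2%. A pileup above the list median was found for 11 of 21 Cdx1 peaks, against 49.9% of the list, and for 15 of 25 Cdx2 peaks, against 39.8%. A −log10 q of at least 5 was reached by 11 of 21 Cdx1 peaks, against 52.2% of the list, and by 9 of 25 Cdx2 peaks, against 29.0%. Both counts for Cdx1 were close to the background. The pileup is not corrected for the local background. The median local background was 1.33 times the genome-wide value at the Cdx1 peaks (list, 1.17). At the Cdx2 peaks it was 1.41 times (list, 1.08). The part of the local background in the counts for Cdx2 was not tested. The fold enrichment ranged from 3.86 to 9.09 with Cdx1 and from 3.28 to 6.28 with Cdx2. Within the Cdx1 list, the median rank was 24.1% for the 8 peaks at *ID1*, 63.4% for the 3 at *ID2*, 63.4% for the 7 at *ID3* and 31.9% for the 3 at *ID4*. Within the Cdx2 list, it was 86.1% for the 5 peaks at *ID1*, 16.8% for the 10 at *ID2*, 66.3% for the 6 at *ID3* and 34.8% for the 4 at *ID4*. As the lists differ in length and in their lowest pileup (5 for Cdx1 and 4 for Cdx2), and the medians cover unequal numbers of peaks, no order of the factors is read from these ranks.

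**Figure D4:**
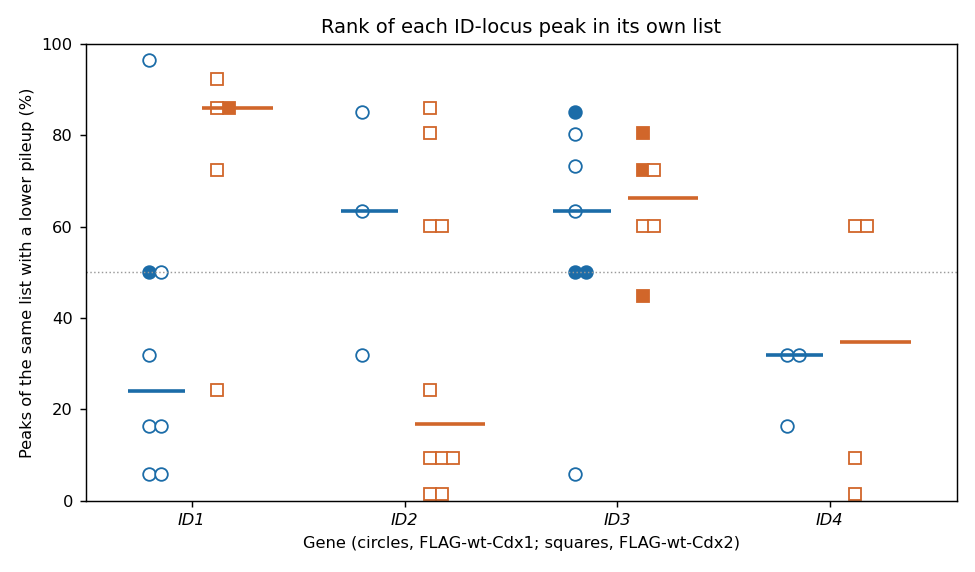
Rank of each of the 46 peaks in its own list (vertical axis, percent of peaks with a lower pileup) by gene, with circles for Cdx1 and squares for Cdx2. Filled symbols are shared summits, bars are medians, and the dotted line is 50%. The points run from 1.51% to 96.6%, and ranks are read within a list and not between the factors.

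Summits within 100 bp of a summit of the other factor numbered 4 in each library, 1 at *ID1* and 3 at *ID3*. For Cdx1 this was 19.0% of its 21 peaks (Wilson, 95% interval 7.67 to 40.0), against 29.2% of the whole list, and for Cdx2 it was 16% of 25 (6.40 to 34.7), against 26.3%. The intervals include the shares of the lists. They treat the peaks as independent, although these came from 4 loci and 1 library per factor, so this is a description and no test. When any overlap of the peaks was counted, 7 sites were called with both factors, 2 at *ID1*, 2 at *ID2*, 3 at *ID3* and 0 at *ID4*, or 33.3% and 28.0% of the peaks against 34.2% and 30.8% of the lists. At these 7 sites, the pileup ratio of Cdx1 to Cdx2, scaled by the tags kept, was between 0.698 and 1.40. The widest bounds of the 95% intervals of these ratios were 0.270 and 4.29. A site counted only when a peak was called in both libraries, which favors similar pileups. The ratios are therefore a description and no test between the factors. At the 4 shared summits together, 44 and 41 fragments gave a ratio of 0.899 (0.574 to 1.41). The median of the ratios of the single summits was 0.942, against a median of 0.957 over 57397 shared summits of the lists. At the strongest site of the family, upstream of *ID1*, 20 against 12 fragments gave 1.40 (0.650 to 3.13). No conclusion on a difference between the factors is drawn from it.

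**Figure D5:**
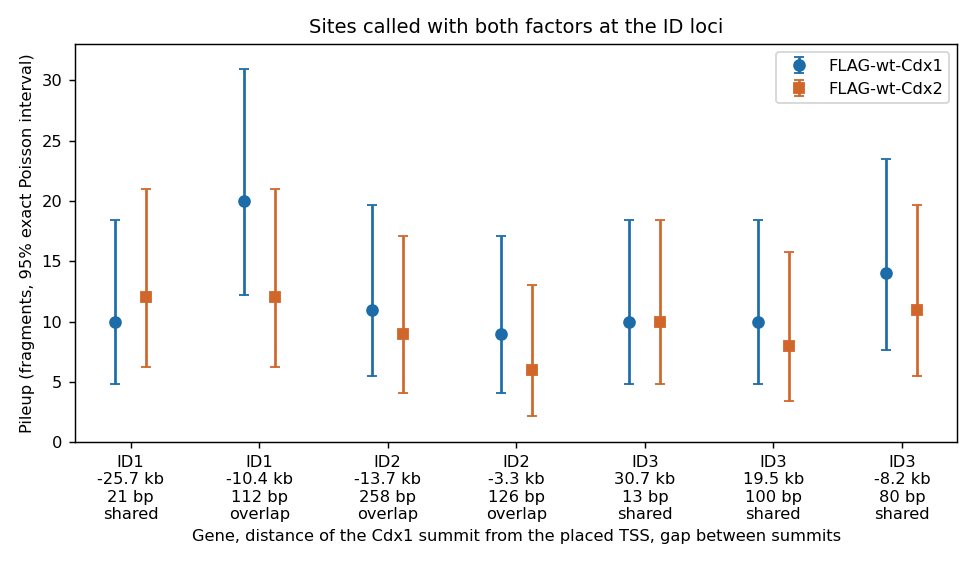
Pileup in fragments with 95% exact Poisson intervals (vertical axis) at the 7 sites called with both factors, with circles for Cdx1 and squares for Cdx2. Labels give the gene, the distance of the Cdx1 summit from the placed TSS, the gap between the summits, and whether the site counts as shared within 100 bp. The intervals of the factors overlap at every site, but the sites were chosen for a call with both factors, so this is no test between them.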

How the data were processed

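Processed peak lists of a FLAG-wt-Cdx1 library and a FLAG-wt-Cdx2 library (ChIP-seq, no replicates) were analyzed. Per the file headers, the authors called peaks in each library with MACS 2.0.10.20131216 without a control, at a q-value cutoff of 0.05 and with at most 1 tag per position. The processing notes name GRCh37, bcl2fastq 1.8.3, cutadapt 1.1 and Trimmomatic 0.32. The aligner is not given in the sources used here. The deposited values are the pileup signal at the summit, the −log10 p and −log10 q, and the ratio of the summit to its local background (fold enrichment). The local background was recovered from pileup and fold enrichment, with a pseudocount of 1 on the pileup and on the background. The second file of each library, which repeats the same peaks, was not used.

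Windows, genes and lists were chosen with earlier results of these data known. All 4 genes were named, with their nearest, highest and shared peaks, and other genes only as neighbors. Summits within 100 bp were called shared. Shares have Wilson intervals, and pileups and their ratios exact intervals. Grid positions over 500 kb from any summit were left out. Distances and sharing were tested on simulated data. Genes of the BMP pathway and E proteins were not placed, as no annotation of the build was used. Tools were scipy 1.17.1, numpy 2.4.6, matplotlib 3.10.9, pandas 2.3.3 and Python 3.11.15.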

Additional observations from a re-analysis of the deposited data

How the results depend on the processing

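No paired analysis was possible because neither factor had a second library, and for the same reason no replicate could be left out. The cause of the changes below was not tested, except that stricter thresholds and narrower windows leave fewer peaks by construction. At a −log10 q of 5 or more, the 21 peaks of Cdx1 fell to 11 and the 25 of Cdx2 to 9, at a fold enrichment of 5 or more to 13 and 12, and to 7 and 6 in windows narrowed by 20 kb at each edge. The order of the factors was thus the opposite under all 3. At a −log10 q of 5 or more, the order of the whole lists was also the opposite, with 102753 Cdx1 and 63403 Cdx2 peaks left. The median fold enrichment of the lists was 5.33 for Cdx1 and 4.72 for Cdx2. Nothing particular to the ID loci is read from the change of order. The narrowed windows held 0 Cdx2 peaks at *ID1* and 0 at *ID4*. Counting any base in the window left the 21 and 25 peaks unchanged. The median distance of the nearest Cdx1 summit over the 4 genes, 2777.5 bp, became 1848.5 bp with the TSS 1 kb upstream and 4407.5 bp at a −log10 q of 5 or more, and that of Cdx2, 6629.5 bp, became 11947.5 bp with this threshold. With the TSS 1 kb upstream, the nearest summit changed sides at *ID1* with Cdx1 (−1446 bp) and at *ID2* with Cdx2 (−2377 bp), and at a −log10 q of 5 or more it did so at *ID1* with Cdx1 (−10398 bp). The median rank of the nearest Cdx1 peaks, 41.0%, was 51.7% by fold enrichment, 48.7% by −log10 q and 38.8% within the chromosome. For Cdx2, 66.3% became 56.9%, 58.4% and 63.0%, respectively. The median rank of the highest Cdx1 peaks, 85.1%, became 85.3%, 86.6% and 85.5%, and that of Cdx2, 83.3%, became 75.2%, 77.8% and 81.3%. At a limit of 50 bp, the share of shared peaks was 9.52% for Cdx1 (list, 22.8%) and 8% for Cdx2 (list, 20.5%), in place of 19.0% and 16%. Under all 6 alternatives it stayed within its wide interval, the density ratio within 1.5 times under both of its own, and the median pileup ratio at shared summits, 0.942, within the interval of the pooled ratio when unscaled (1.125) or taken from fold enrichments (1.23).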
